A study of Cricetulus griseus with 16 samples.

Results

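A set of 10 genes of the machinery that starts autophagy was followed in heated Chinese hamster ovary (CHO) cells. They were taken by name, ignoring case, from a count table of 20824 genes, and 8 of the 10 were found, namely Pik3r4, Pik3c3, Becn1, Atg14, Ulk1, Wipi1, Gabarapl1 and Sqstm1. Uvrag and Map1lc3b were not listed by name, no identifier was assigned to them, and neither was analysed here. The list was chosen partly by a measured value, the fall of Pik3r4 after 1 h at 42.5 °C, so every value that compares 42.5 °C with 37 °C is given below as a description for these genes, with no test.

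Autophagy wraps cytoplasm in a double membrane and delivers it to the lysosome. The ULK1 kinase complex receives signals from nutrient and energy kinases and turns on the VPS34 lipid kinase complex, which makes the lipid PI3P on the growing membrane. WIPI proteins bind that lipid, proteins of the ATG8 family (the LC3 and GABARAP proteins) are then attached to the membrane, and receptors such as p62 link cargo to them.

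RNA was collected from 4 cultures kept at 37 °C, 4 given mild heat of 40 °C for 1 h, 4 given the same heat for 6 h and 4 given 42.5 °C for 1 h, with the letters A to D naming the cultures of a group. All of them were the established line CHO (ATCC CCL-61), grown in Ham's F-12K medium with fetal bovine serum, penicillin and streptomycin, and heat was the only treatment named. A single line stands for the cell type here. No time is given for the 37 °C cultures, and no separate 37 °C group is named for 6 h. Longer heating and longer time in culture therefore cannot be told apart where the 6 h group is compared with another. Levels are given in CPM, the read count divided by the TMM-scaled size of its library. Total counts were between 10504192 and 14668365 per library, and each of the 8 genes had at least 93 counts in every library. RNA was pooled over all cells of a culture, so fewer cells with a transcript and less of it per cell cannot be told apart.

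Replicate D at 37 °C stood apart from its group. Over 10565 genes, Pearson's r of its log2 CPM to each other control was 0.974 to 0.9763, against 0.9934 to 0.9961 for all other pairs of replicates, as a description across genes. The study left this control out, and it was left out of the group means and tests here, with its own values printed beside them. The fibroblast marker Vim lay between 1820 and 2380 CPM in the 15 libraries used. The leukocyte marker Ptprc and the epithelial marker Epcam had at most 1 count in any library, and the ovarian follicle genes Fshr, Cyp19a1 and Foxl2 had 0. The endothelial marker Pecam1 had at most 4 counts. Another epithelial marker, Cdh1, was present at a low level, with 20 to 48 counts per library (1.7 to 4.14 CPM in the 15 used). The heat response was present in each heated group. The chaperone gene Hsph1 lay between 320 and 328 CPM in the 37 °C libraries used and between 1730 and 3770 CPM at 42.5 °C. It lay between 449 and 874 CPM after 1 h at 40 °C and between 597 and 1070 CPM after 6 h. Dnajb1 and Hspb1 were also above those controls in every heated library, and Hspa8 was not listed by name.

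**Figure D1:**
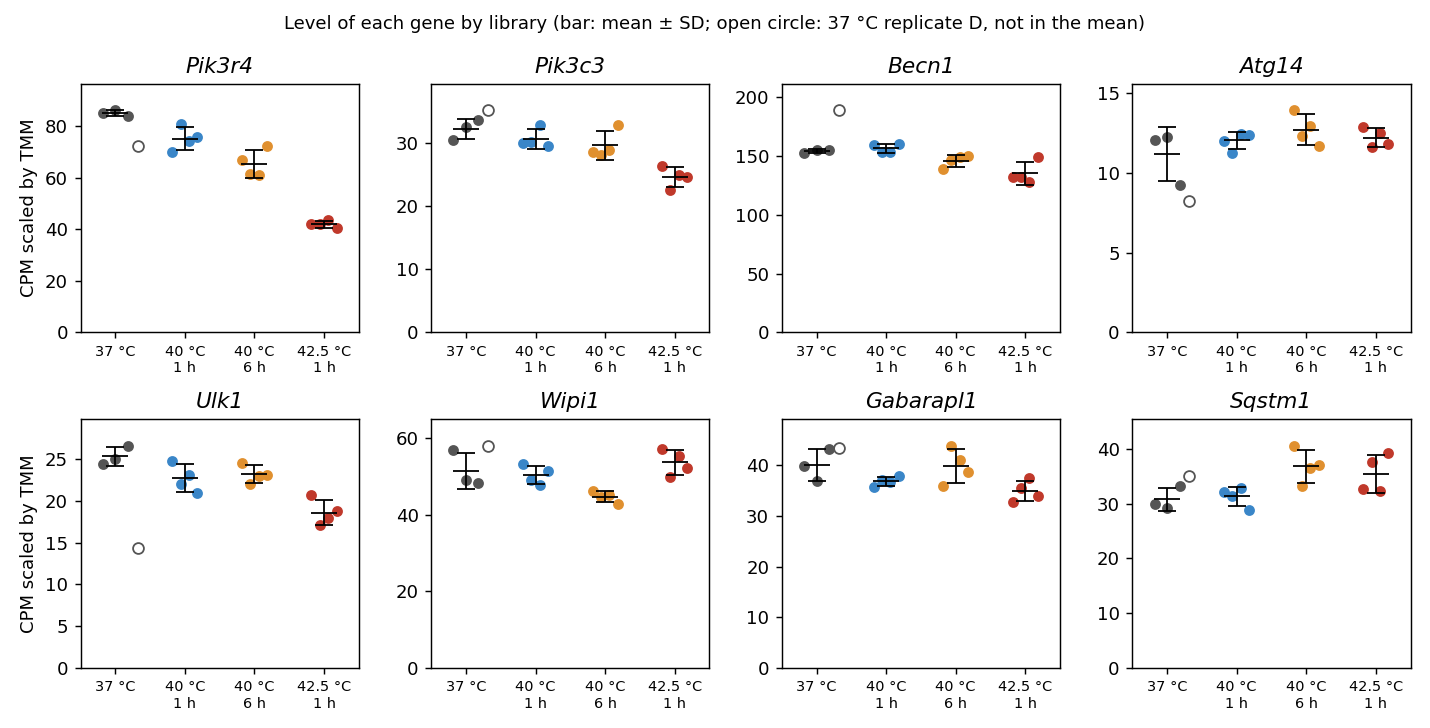
Level of the 8 genes in each library, in CPM scaled by TMM (y axis), by treatment (x axis). Points are libraries, bars are the mean ± SD, and the open circle is replicate D at 37 °C, which is not in the mean. Pik3r4 steps down from 85.0 at 37 °C to 41.9 at 42.5 °C, while Atg14 stays between 11.2 and 12.7 in the group means.

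The VPS34 complex holds the lipid kinase itself (Pik3c3), its regulatory subunit VPS15 (Pik3r4), beclin 1 (Becn1), and either Atg14, which directs the complex to the forming autophagosome, or UVRAG, which directs it to endosomes. CPM can be compared between libraries, but not between genes of different length. Differences were tested with the quasi-likelihood test of edgeR over all genes, and a gene passed at a Benjamini-Hochberg adjusted p under 0.05.

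Pik3r4 (ENSCGRG00001014556) was at 85.0, 86.1 and 84.0 CPM in replicates A, B and C at 37 °C and at 72.3 CPM in replicate D. It was at 69.7, 80.8, 74.3 and 75.5 CPM after 1 h at 40 °C and at 66.8, 61.4, 60.9 and 72.1 CPM after 6 h at 40 °C. After 1 h at 42.5 °C it was at 41.8, 42.1, 43.4 and 40.3 CPM. The 42.5 °C libraries lay below all others, both groups at 40 °C lay below the 3 controls, and the 2 groups at 40 °C overlapped.

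At 42.5 °C the mean of Pik3r4 was 41.9 ± 1.28 CPM (SD, n = 4), against 85.0 ± 1.04 (SD, n = 3) at 37 °C. The difference was -1.03 on the log2 scale (SE 0.05), 0.49 of the control level, and 114 of 10470 genes tested had a lower value in that comparison. Since this fall chose the gene, it was not tested. With replicate D among the controls the value was -0.96.

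At 40 °C for 6 h the mean of Pik3r4 was 65.3 ± 5.28 CPM (SD, n = 4), a log2 difference of -0.39 from 37 °C (SE 0.06), and -0.33 with replicate D among the controls. At 40 °C for 1 h it was 75.1 ± 4.56 CPM (SD, n = 4), a log2 difference of -0.18 (SE 0.05), and -0.125 with replicate D among the controls. This 1 h difference was -0.22 without replicate B of that group, the highest of the 4, and -0.15 without replicate A, the lowest. The controls are those of the comparison that chose Pik3r4, so both differences are descriptions for this gene, with no test.

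The comparison of 6 h with 1 h at 40 °C used no library of the comparison behind the choice. Pik3r4 was lower at 6 h by a log2 difference of -0.20 (SE 0.06, adjusted p = 0.0322), and 10 of 15 fits called it. The call was lost without replicate B, C or D at 1 h or without replicate B or C at 6 h, where the adjusted p was 0.106, 0.0599, 0.0558, 0.0964 and 0.105. The 42.5 °C libraries were lower than those at 40 °C for 1 h by -0.85 (SE 0.05) and lower than those at 40 °C for 6 h by -0.65 (SE 0.06). Both values rest on the libraries that chose the gene and are not tested.

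**Figure D2:**
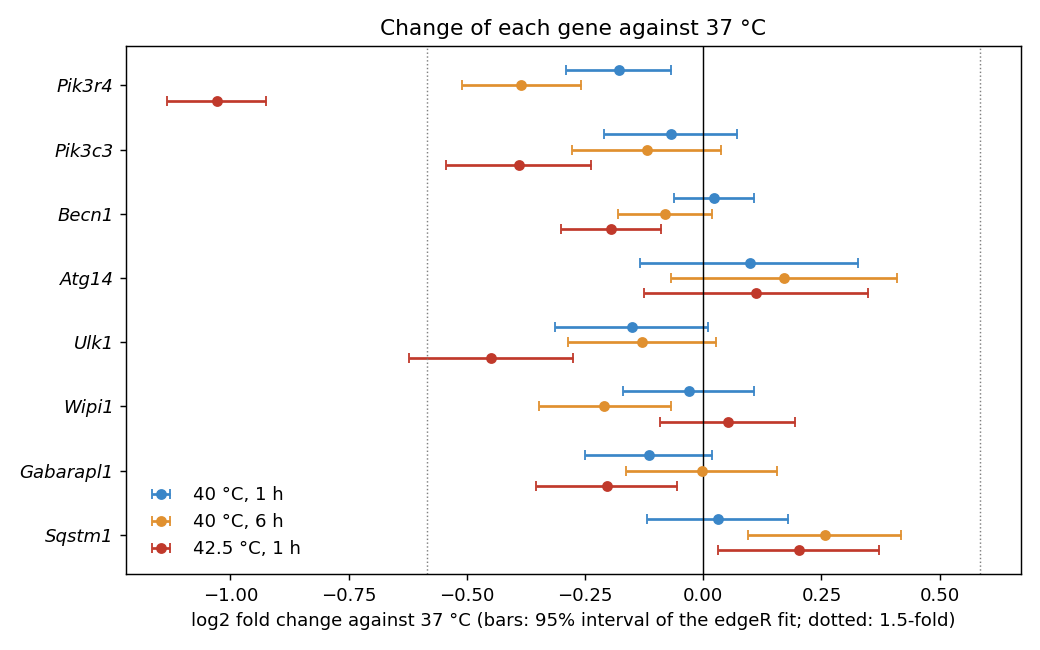
Log2 fold change against 37 °C (x axis) of the 8 genes (y axis) for each heat treatment, from the edgeR fit, with 95% intervals as bars and the 1.5-fold lines dotted. Pik3r4 at 42.5 °C, at -1.03, is the only value beyond the dotted lines, and the intervals of Atg14 include 0 in each treatment.

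Pik3c3 (ENSCGRG00001012349), the catalytic subunit, was at 30.4, 32.5 and 33.5 CPM in the 3 controls and at 35.1 CPM in replicate D. It was at 29.9, 30.1, 32.9 and 29.6 CPM after 1 h at 40 °C and at 28.5, 28.1, 28.8 and 32.9 CPM after 6 h. At 42.5 °C it was at 26.3, 22.6, 24.9 and 24.5 CPM, below every other library of the series.

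The mean of Pik3c3 at 42.5 °C was 24.6 ± 1.52 CPM (SD, n = 4) against 32.1 ± 1.61 (SD, n = 3) at 37 °C, a log2 difference of -0.39 (SE 0.07) given as a description. The comparisons with the milder treatments were tested. Pik3c3 was lower at 42.5 °C than at 40 °C for 1 h by -0.32 (SE 0.07, adjusted p = 0.00196 by edgeR) and than at 40 °C for 6 h by -0.27 (SE 0.08, adjusted p = 0.00733), and each call held in 15 of 15 fits. At 40 °C it did not pass against 37 °C, with -0.07 (95% interval -0.21 to 0.07) at 1 h and -0.12 (-0.28 to 0.04) at 6 h.

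Becn1 (ENSCGRG00001019061), the scaffold of the complex, was at 153, 155 and 155 CPM in the 3 controls, and replicate D, at 189 CPM, was above every other library. It was at 159, 153, 153 and 161 CPM after 1 h at 40 °C and at 139, 147, 149 and 150 CPM after 6 h. At 42.5 °C it was at 132, 132, 128 and 149 CPM, so that replicate D of that group lay among the libraries heated for 6 h.

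Becn1 was lower at 42.5 °C than at 40 °C for 1 h by a log2 difference of -0.22 (SE 0.05, adjusted p = 0.00247 by edgeR), in 15 of 15 fits. Against 40 °C for 6 h the difference was -0.12 (SE 0.05, adjusted p = 0.0701). It passed in 4 of 15 fits, and leaving out replicate D at 42.5 °C gave -0.17 (adjusted p = 0.00973) and leaving out replicate A at 6 h gave -0.14 (adjusted p = 0.0394). Against 37 °C the descriptive value at 42.5 °C was -0.20 (SE 0.05), and -0.26 with replicate D among the controls.

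Atg14 (ENSCGRG00001009322) was the least abundant in reads, with 107 to 172 counts in the 3 controls. It was at 12.1, 12.3 and 9.23 CPM there, at 8.27 CPM in replicate D, between 11.3 and 12.5 CPM after 1 h at 40 °C, between 11.7 and 13.9 CPM after 6 h and between 11.6 and 12.9 CPM at 42.5 °C. All groups overlapped, and Atg14 passed in none of the 5 tested comparisons, in any of 15 fits each. Its intervals were wide, from -0.13 to 0.33 at 40 °C for 1 h and from -0.07 to 0.41 at 40 °C for 6 h.

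Within each library, the number of Pik3r4 reads per Pik3c3 read needs no scaling between libraries. It was 2.80, 2.65 and 2.50 in the 3 controls, 2.06 in replicate D, 2.33, 2.69, 2.26 and 2.56 after 1 h at 40 °C, 2.34, 2.18, 2.12 and 2.19 after 6 h, and 1.59, 1.86, 1.74 and 1.64 at 42.5 °C. The 42.5 °C ratios lay below all others, which is a description because Pik3r4 was chosen on those libraries. Between 6 h and 1 h at 40 °C, the mean log2 ratio differed by -0.15, which did not pass an exact two-sided permutation test over 70 arrangements (p = 0.0857, n = 4 and 4, smallest p possible 0.0286).

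**Figure D3:**
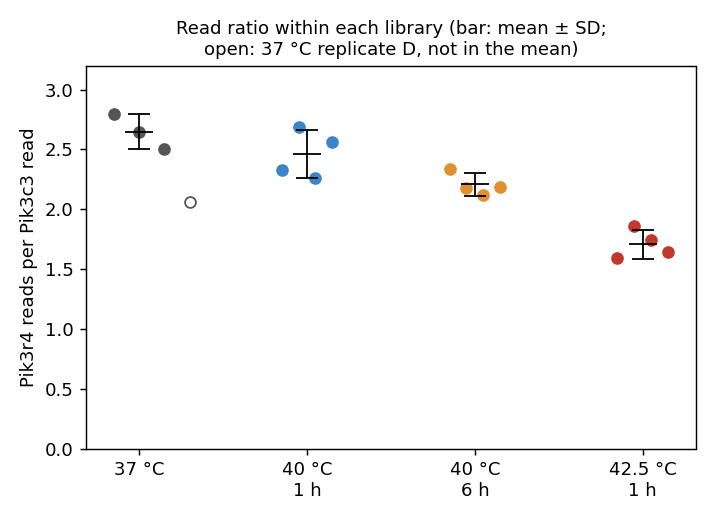
Reads of Pik3r4 per read of Pik3c3 in each library (y axis) by treatment (x axis), with the mean ± SD as bars and replicate D at 37 °C as an open circle outside the mean. Group means step from 2.65 at 37 °C through 2.46 and 2.21 to 1.71 at 42.5 °C, and the 6 h libraries lie below the 3 controls but overlap those of 1 h.

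Ulk1 (ENSCGRG00001020729) encodes the kinase upstream of the VPS34 complex. It was at 24.4, 25.02 and 26.6 CPM in the 3 controls, but at 14.4 CPM in replicate D, below every other library. After 1 h at 40 °C it was at 24.8, 22.1, 23.2 and 20.9 CPM and after 6 h at 24.6, 22.1, 23.0 and 23.2 CPM. At 42.5 °C it was at 20.7, 17.1, 17.9 and 18.8 CPM, below all heated libraries at 40 °C and below the 3 controls.

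Ulk1 was lower at 42.5 °C than at 40 °C for 1 h by a log2 difference of -0.30 (SE 0.08, adjusted p = 0.0105 by edgeR) and than at 40 °C for 6 h by -0.32 (SE 0.08, adjusted p = 0.00347), both in 15 of 15 fits. The descriptive value against 37 °C was -0.45 (SE 0.08), and -0.28 (SE 0.18) with replicate D among the controls. Neither treatment at 40 °C passed against 37 °C, with -0.15 (95% interval -0.31 to 0.01) at 1 h and -0.13 (-0.29 to 0.03) at 6 h. With replicate D these became 0.006 and 0.03.

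Wipi1 (ENSCGRG00001010742), whose product binds PI3P, was at 57.0, 49.2 and 48.4 CPM in the 3 controls and at 58.1 CPM in replicate D. After 1 h at 40 °C it was at 53.2, 49.2, 47.9 and 51.5 CPM, and after 6 h at 46.3, 44.7, 45.2 and 42.9 CPM, below every library of the other groups. At 42.5 °C it was at 57.3, 49.8, 55.5 and 52.4 CPM. These values lay within the range of the unheated libraries only with replicate D counted, since 57.3 CPM was above the highest of the 3 controls.

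At 40 °C for 6 h against 37 °C, Wipi1 fell, with a log2 difference of -0.21 (SE 0.07, adjusted p = 0.0249 by edgeR). The call was lost with replicate D among the controls (adjusted p = 0.066), without replicate A at 37 °C (-0.12, adjusted p = 0.219) and without replicate D at 6 h (adjusted p = 0.0668). It was lower at 6 h than at 1 h by -0.17 (SE 0.06, adjusted p = 0.0392). That call held in 8 of 15 fits. It was lost with the Wald test of DESeq2 (adjusted p = 0.0543), and without replicate A, B or D at 1 h (adjusted p = 0.129, 0.059 and 0.0788) or B, C or D at 6 h (adjusted p = 0.0777, 0.0742 and 0.0919). Between 42.5 °C and 40 °C for 6 h the difference was 0.26 (SE 0.06, adjusted p = 0.00186), higher at 42.5 °C, in 15 of 15 fits. Wipi1 thus had its lowest level after 6 h of mild heat, where Pik3c3 and Ulk1 had theirs at 42.5 °C.

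Gabarapl1 (ENSCGRG00001022681) encodes an ATG8 family protein. It was at 39.8, 36.9 and 43.3 CPM in the 3 controls, at 43.4 CPM in replicate D, between 35.8 and 37.9 CPM after 1 h at 40 °C, between 35.8 and 43.9 CPM after 6 h and between 32.8 and 37.4 CPM at 42.5 °C. Every group overlapped with every other. It was lower at 42.5 °C than at 40 °C for 6 h by -0.20 (SE 0.07, adjusted p = 0.0281 by edgeR), a call held in 10 of 15 fits. It was lost without replicate B or C at 6 h (adjusted p = 0.103 and 0.0715) or without replicate A, B or D at 42.5 °C (adjusted p = 0.0815, 0.051 and 0.061). Against 37 °C it did not pass at 40 °C, and the descriptive value at 42.5 °C was -0.20 (SE 0.07).

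Sqstm1 (ENSCGRG00001009697) encodes p62, a receptor that binds ubiquitin-tagged cargo. It was at 30.0, 29.2 and 33.2 CPM in the 3 controls and at 34.97 CPM in replicate D. It was at 32.2, 31.5, 33.0 and 28.9 CPM after 1 h at 40 °C, at 40.6, 33.2, 36.5 and 37.0 CPM after 6 h and at 32.6, 37.7, 32.3 and 39.2 CPM at 42.5 °C. After 6 h all libraries lay above those of 1 h, and the lowest of them lay just under the highest control.

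Sqstm1 was the one gene of the 8 that rose in a tested comparison at 40 °C. The log2 difference between 6 h and 37 °C was 0.26 (SE 0.08, adjusted p = 0.0176 by edgeR), a call lost with replicate D among the controls (0.21, adjusted p = 0.156) and without replicate A or B at 37 °C (adjusted p = 0.0708 and 0.0908). It was higher at 6 h than at 1 h by 0.23 (SE 0.07, adjusted p = 0.0324), in 9 of 15 fits. That call was lost without replicate A, B or D at 1 h (adjusted p = 0.0508, 0.0659 and 0.0802) or A, C or D at 6 h (adjusted p = 0.081, 0.0685 and 0.0623). At 42.5 °C the difference from 40 °C for 1 h, 0.17 (SE 0.07), did not pass (adjusted p = 0.082), but did without replicate A or C at 42.5 °C (adjusted p = 0.0427 and 0.042). Against 37 °C the descriptive value there was 0.20 (SE 0.08).

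Counted together, 0 of the 8 genes passed at 40 °C for 1 h against 37 °C by edgeR, 1 had an unadjusted p under 0.05, and DESeq2 also called 0, where 1.64% of all 10494 genes passed. At 40 °C for 6 h, 2 were lower and 1 was higher than at 37 °C, where 14.8% of all genes passed as lower, 14.7% as higher and 29.4% in either direction. No gene of the 8 reached a fold change of 1.5 there, as 3.11% of all genes did. With replicate D among the controls, 1 of the 8 passed at 6 h, Pik3r4, as did 10.7% of all genes in that fit. Without replicate A at 37 °C 1 also passed. All counts against 37 °C include Pik3r4, whose control values were used in choosing it.

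Between 6 h and 1 h at 40 °C, 2 genes were lower and 1 was higher, against 9.04% and 9.45% of all genes and 18.5% together. The counts fell to 0 without replicate B or D at 1 h or C at 6 h, and to 1 without replicate A at 1 h or B or D at 6 h. None was past 1.5-fold, as 1.28% of all genes were. Between 42.5 °C and 40 °C for 1 h, 4 were lower and 0 higher at 42.5 °C, against 19.6% and 16.4% of all genes and 36.1% together. Only Pik3r4 was past 1.5-fold in that comparison, as 5.27% of all genes were. Between 42.5 °C and 40 °C for 6 h, 4 were lower and 1 was higher, against 24.5% and 22.5% and 47% together, and again Pik3r4 alone was past 1.5-fold, as 8.25% of all genes were. These counts include Pik3r4, which was chosen on the 42.5 °C libraries.

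In the comparison behind the choice, 42.5 °C with 37 °C, 5 of the 8 were under the threshold as lower and 0 as higher, where 22.3% of all genes were lower, 20.8% higher and 43.1% either. Pik3r4 was the 1 past 1.5-fold, as 7.51% of all genes were. Nothing is read from these counts. The median log2 difference of the 8 genes against 37 °C was -0.05 after 1 h of mild heat, -0.10 after 6 h of it and -0.20 at 42.5 °C, and that of all genes tested lay between -0.002 and 0.001. These comparisons share their control libraries.

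Pik3r4 was also compared with 9395 other named genes that passed the count filter, by its pattern over the 15 libraries, as Pearson's r of log2 CPM. The most alike were Smarcd1 (r = 0.972), Edem3 (0.97), Asxl1 (0.968), Stk11 (0.968) and Mark2 (0.967), with levels at 37 °C and 42.5 °C of 62.0 and 46.1, 344 and 260, 266 and 144, 119 and 77.1, and 75.3 and 50.1 CPM. Of the other 7 genes, Pik3c3 (0.905) and Ulk1 (0.837) were nearest, ranked 124 and 422 of 9395 genes, whereas Sqstm1 (-0.485), Wipi1 (-0.313) and Atg14 (-0.27) had negative values. The libraries share the same 4 treatments, so these correlations are descriptions.

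The rest of the pathway was followed in 8 lists with 96 further genes, of which 87 were found by name and 85 were tested. At 40 °C for 1 h, 2 of the 85 passed against 37 °C, both lower, which is 2.35% beside 1.64% of all genes. They were Atg16l1, part of the enzyme that attaches ATG8 proteins to membranes, with a log2 difference of -0.31 (SE 0.06, adjusted p = 0.00859 by edgeR), and Sesn2, a stress-inducible inhibitor of mTORC1 signaling, with -0.53 (SE 0.12, adjusted p = 0.0332). With replicate D among the controls neither passed, and 0.0383% of all genes did.

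After 6 h at 40 °C, 9 rose and 10 fell, 22.4% of the 85 beside 29.4% of all genes. Sesn2 fell most, from 10.6 ± 1.51 CPM (SD, n = 3) to 6.41 ± 0.05 (SD, n = 4), a log2 difference of -0.72 (SE 0.12, adjusted p = 0.000345 by edgeR). Mlst8, an mTOR complex subunit, fell by 0.46 (adjusted p = 0.00141) and Atg16l1 by 0.45 (adjusted p = 0.000119). The cargo receptor Nbr1 rose from 251 ± 8.69 to 298 ± 8.93 CPM, a log2 difference of 0.25 (SE 0.05, adjusted p = 0.000785). Epg5, a tether for fusion with the lysosome, rose by 0.33 (adjusted p = 0.00264) and Prkag1, a subunit of the energy sensor AMPK, by 0.27 (adjusted p = 0.00567). In the list of PI3P effectors and ATG9 lipid transfer, 3 of 11 rose and 3 fell. With replicate D among the controls, 9 of the 85 passed, beside 10.7% of all genes.

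Between 6 h and 1 h at 40 °C, 5 of the 85 were higher and 3 lower, 9.41% beside 18.5% of all genes. Nbr1 was higher at 6 h by 0.25 (SE 0.04, adjusted p = 0.0014), Prkag1 by 0.26 (adjusted p = 0.00949) and Epg5 by 0.26 (adjusted p = 0.0123). The PI3P phosphatase gene Mtmr14 was lower by -0.26 (adjusted p = 0.0028), Mlst8 by -0.27 (adjusted p = 0.0464) and Atg13, a subunit of the ULK1 complex, by -0.19 (adjusted p = 0.0146).

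**Figure D4:**
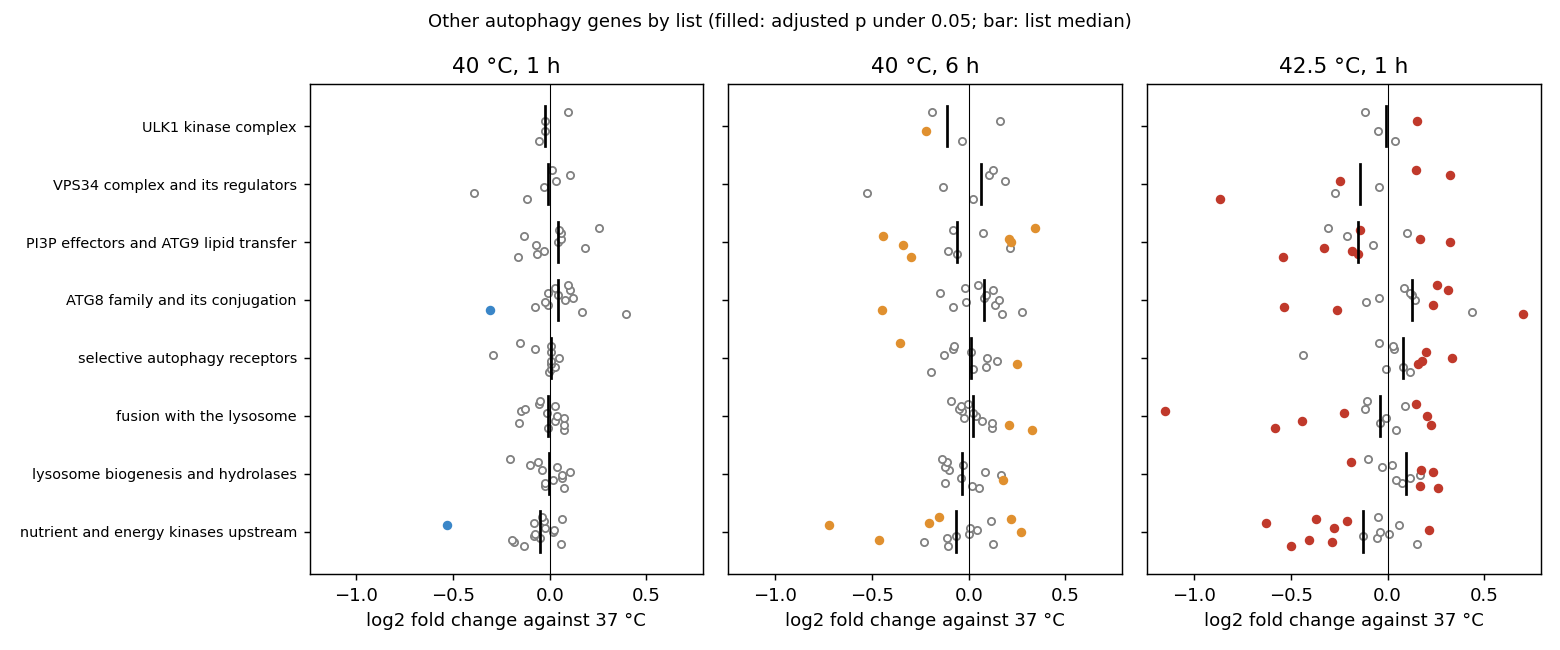
Log2 fold change against 37 °C (x axis) of the 85 other autophagy genes tested, by list (y axis) and treatment (panel). Filled points had an adjusted p under 0.05 and black bars are list medians. Filled points number 2, 19 and 42 in the panels from left to right, and rises and falls are equal in number at 42.5 °C.

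At 42.5 °C, 21 rose and 21 fell against 37 °C, 49.4% of the 85 beside 43.1% of all genes. The largest fall was in Vps18, a core subunit of the HOPS tether that joins autophagosomes to lysosomes, from 49.0 ± 1.16 CPM (SD, n = 3) to 22.1 ± 3.02 (SD, n = 4), a log2 difference of -1.15 (SE 0.08, adjusted p = 6.24e-08 by edgeR). Ambra1, a positive regulator of the beclin 1 complex, fell from 38.1 ± 1.15 to 21.0 ± 2.77 CPM, by 0.87 (SE 0.09, adjusted p = 1.49e-06). Stk11, the kinase upstream of AMPK, fell by 0.63 (adjusted p = 1.25e-07). Among genes whose groups did not overlap, the largest rises were in Retreg1, a receptor for endoplasmic reticulum (0.34, adjusted p = 0.00156), the PI3P phosphatase gene Mtmr3 (0.33, adjusted p = 0.000591) and Sh3glb1, a partner of the beclin 1 complex (0.32, adjusted p = 0.000218). With replicate D among the controls, 17 of the 85 passed, beside 18.2% of all genes.

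By list at 42.5 °C, 4 of 6 VPS34 regulators passed, 2 in each direction, and 5 of 11 PI3P effectors and lipid transfer genes fell while 2 rose. In the selective autophagy receptors, 4 of 11 rose and 0 fell, with a list median of 0.08 on the log2 scale. In the ATG8 family and its conjugation, 4 of 13 rose and 2 fell. Among nutrient and energy kinases, 7 of 15 fell and 1 rose, with a median of -0.13. Of the other subunits of the ULK1 kinase complex, 1 of 4 rose and 0 fell. For fusion with the lysosome, 3 of 13 rose and 4 fell, and for lysosome biogenesis and hydrolases, 4 of 12 rose and 1 fell. The lists hold few genes. Their shares are to be read beside those over all genes, 20.8% higher, 22.3% lower and 43.1% in either direction.

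Against the milder treatments, 18 of the 85 were higher and 17 lower at 42.5 °C than at 40 °C for 1 h, and 20 were higher and 18 lower than at 40 °C for 6 h, 41.2% and 44.7% beside 36.1% and 47% of all genes. Vps18 was lower by -1.002 (adjusted p = 3.75e-07) and -1.12 (adjusted p = 1.84e-08), and Ambra1 by -0.75 (adjusted p = 5.38e-06) and -0.89 (adjusted p = 4.78e-07). Plekhm1, an adaptor of the same tether, was lower by -0.57 (adjusted p = 6.7e-07) and -0.71 (adjusted p = 1.68e-08). Retreg1, Mtmr3 and Atg3 were higher than at 40 °C for 1 h by 0.29, 0.28 and 0.24 (adjusted p = 0.00423, 0.00114 and 0.00495). Sesn2, the mitophagy receptor Bnip3 and the lysosomal membrane gene Lamp2 were higher than at 40 °C for 6 h by 0.78, 0.31 and 0.27 (adjusted p = 0.000415, 0.00336 and 0.000211). The mean of Sesn2 was 10.99 CPM at 42.5 °C, near the 10.61 CPM at 37 °C, and 6.41 CPM at 40 °C for 6 h.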

How the data were processed

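Total RNA was sequenced in pairs on a NextSeq. The authors used CLC Genomics Workbench to trim and map reads (build CHOK1GS_HDv1) and deposited raw counts per gene and library, without normalization. The annotation release, strandedness and handling of reads with several mapping places are not given in the sources used here. In the RefSeq annotation of CriGri-PICRH-1.0, another build, the spans of Becn1, Atg14, Sqstm1, Gabarapl1 and Wipi1 overlap other genes, and Gabarapl1 has close paralogs, so some of their reads may be shared. No table here held a sequence, and none is printed.

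The members and lists were chosen with earlier results of these data known. Replicate D at 37 °C was left out, because the control counts that the study lists are those of A, B and C. Each of 6 pairs of groups was fitted with edgeR 4.0.16 in R 4.3.3 (filterByExpr, TMM, quasi-likelihood test, Benjamini-Hochberg over all genes). The threshold was an adjusted p under 0.05. A fold change of at least 1.5 was counted separately. Levels are CPM scaled by TMM over 16 libraries. The study describes the cultures of a group as biological repeats. Patterns like that of Pik3r4 were ranked over genes with a symbol that passed the count filter, and 5 are named. Symbols that start with a number and a hyphen or end with a hyphen and a number were left out. From the lists, up to 3 rises and 3 falls per comparison are named, the largest among genes that passed and whose groups did not overlap. Alternatives were DESeq2 1.42.0 (size factors or its Wald test), no filter, at least 10 counts in every library, 1 fit over 4 groups, a replicate block, all 4 controls and each library left out. The planned ratio of Sqstm1 to Map1lc3b was not computed, since Map1lc3b was not listed by name.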

Additional observations from a re-analysis of the deposited data

Results flagged for a closer look

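Of 32 groups of 4 libraries (8 genes in 4 treatments), 4 held a library whose gap to its nearest neighbour was above the 95% critical value of Dixon's test, where chance flags about 1 in 20 groups. Replicate D at 37 °C was flagged for Pik3r4, at 72.3 CPM below the other controls, and for Becn1, at 189 CPM above them. Pik3c3 was flagged for replicate C at 40 °C for 1 h, at 32.9 CPM, and for replicate D at 40 °C for 6 h, at 32.9 CPM, each the highest of its group.

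The effect of 40 °C differed between 6 h and 1 h in 3 genes by the direct edgeR test of the 2 times, with log2 differences of -0.20 in Pik3r4 (adjusted p = 0.0322), 0.23 in Sqstm1 (adjusted p = 0.0324) and -0.17 in Wipi1 (adjusted p = 0.0392). Of all genes, 18.5% passed in that comparison. The 3 calls held in 10, 9 and 8 of 15 fits, and none held without replicate B or D at 1 h or replicate C at 6 h.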

How the results depend on the processing

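With all 4 control libraries the number of the 8 genes called fell from 3 to 1 at 40 °C for 6 h and from 5 to 3 at 42.5 °C. List genes called (an alternative chosen after seeing the data) went from 2, 19 and 42 to 0, 9 and 17. The share of all genes called fell too, from 1.64%, 29.4% and 43.1% to 0.0383%, 10.7% and 18.2%. Replicate D is the only library added. For list genes only these counts were kept, so it is not given which named ones passed with replicate D at 6 h or 42.5 °C. List genes were not followed in the other alternatives. The replicate block gave 1, 3 and 5 genes against 37 °C (0, 3 and 5 without it) and 3, 4 and 6 between heated groups (3, 4 and 5 without it). The 1 gene at 40 °C for 1 h was Pik3r4 (-0.18), and the gene added between 42.5 °C and 40 °C for 6 h was Becn1. Counts against 37 °C include Pik3r4, whose control values were used in choosing it, so its call there is not read as a test. Nothing is read from the counts of 42.5 °C against 37 °C. Libraries with the same letter had a mean correlation of 0.052 over 21 pairs after subtracting group means, 5 of them over 0.1. Those with other letters had a mean of -0.017 over 63 pairs, 11 of them over 0.1. Of 15 libraries, 5 correlated best with their own letter. The letters were not treated as pairs in the main fits, and the block is given as an alternative. Leaving out each library gave 0 to 1 genes at 40 °C for 1 h, 1 to 3 at 40 °C for 6 h and 0 to 2 between 6 h and 1 h. It gave a log2 ratio difference of -0.192 to -0.109, and none of these 8 exact tests passed (p = 0.0571 to 0.171).

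Uncalled differences changed sign as follows. All 4 controls turned Becn1 (-0.057), Ulk1 (0.006) and Sqstm1 (-0.02) at 1 h and Ulk1 (0.029) at 6 h. Gabarapl1 at 6 h, at -0.003, became 0 with at least 10 counts in every library and 0.008 with the block. Leaving out each library gave -0.054 to 0.056 for Gabarapl1 at 6 h, -0.014 to 0.167 for Atg14, -0.005 to 0.084 for Sqstm1 and -0.073 to 0.05 for Wipi1 at 1 h, -0.011 to 0.074 for Ulk1 between 6 h and 1 h, and -0.015 to 0.041 for Atg14 between 42.5 °C and 40 °C for 1 h. The cause of these changes was not tested. No called gene changed direction in these alternatives. Depth was lowest for Atg14, and small changes may go undetected at these group sizes.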
